A study of Mus musculus with 24 samples.

Results

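The circular RNAs of cardiac fibroblasts from pressure-overloaded mouse hearts were compared between 8 weeks (3 libraries) and 4 weeks (4 libraries) after transverse aortic constriction (TAC), 7 of the 24 libraries of the series. Membership followed from the sample labels alone, and all 1717 circular RNAs in the authors' table entered the comparison. The mice were male C57BL/6J, 8 weeks old at surgery and so 12 or 16 weeks old when the hearts were taken. In TAC a suture was tied around the transverse aorta against a 27-gauge needle, which was then withdrawn, so that the left ventricle pumps against a fixed narrowing. Sham mice had the operation without the ligature, and 5 sham libraries at 4 weeks and 4 at 8 weeks served here as the same interval without pressure overload. All hearts were perfused on a Langendorff apparatus to isolate fibroblasts, and RNA was depleted of ribosomal RNA before stranded sequencing. The labels do not say whether libraries came from separate or pooled animals, so p-values measure only the spread between these libraries. The comparison asks how the circular RNA content of fibroblasts changes between a middle and a late stage under sustained load.

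A circular RNA arises when the spliceosome joins the end of an exon back to the start of the same exon or one further upstream. A closed loop has no free ends, resists exonucleases and is usually more stable than the linear transcript of its host gene. Such molecules are counted by reads that cross the back-splice junction, so their values here do not scale with transcript length. Cardiac fibroblasts are the main producers of extracellular matrix in the heart, and pressure overload drives many of them into a contractile, matrix-secreting state.

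The junctions of the circles on which the results turn are printed below, because the junction is the only stretch that separates a circle from its linear host. Each line gives the last 15 bases of the circle in lower case, then in capitals the first 15 bases after the back-splice, on the transcript strand, from GENCODE transcript sequences of GRCm38, the build that mm10 names. Eprs and Phf21a had the smallest p-values. Among the 20 circles with the smallest p, Uhrf2, Malat1 and Ttn were higher at 8 weeks, and Ttn had the most reads of the higher ones. Nfix and Med13l were the most abundant circles.
Eprs exons 11 to 15, chr1:185386246-185397267, + strand: aacaaagacagtaagGGATGACCCACGGTT
Phf21a exons 15 to 17, chr2:92356864-92359209, + strand: agcagttctataagtGGTGATATCCATGAG
Uhrf2 exon 2, chr19:30039064-30039297, + strand: tttggactatataagTTGGAAAATGGATAT
Ttn exons 85 to 118, chr2:76857904-76881839, − strand: cccctccagctaaagAACCCCCCAGGTTCA
Malat1 66-base circle, chr19:5801833-5801898, − strand: tagaagacagaaaagGTGAAGAAAAAGCTG
Malat1 45-base circle, chr19:5801899-5801943, − strand: aagacatacaggaagAAGATTAGAAAATGG
Nfix exon 2, chr8:84771784-84772315, − strand: ttgtccacactccggGATGAGTTCCACCCG
Med13l exon 2, chr5:118593333-118593570, + strand: atcatgaactgcaggGCTGAACTCACAGGA

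The libraries at 4 weeks were deeper. They held 6846, 7931, 7997 and 9146 junction reads (mean 7980 ± 940, SD, n = 4), against 4685, 5678 and 6731 at 8 weeks (5698 ± 1023, SD, n = 3). The groups did not overlap, although the shallowest library at 4 weeks and the deepest at 8 weeks were close, and the two-sided exact permutation p of 0.0571 is the smallest that 35 splits allow. The deposited values scale each library to a similar total, so that 1 read stood for 0.642 to 0.845 normalized reads at 4 weeks and for 0.857 to 1.20 at 8 weeks. Low values therefore came in coarser steps at 8 weeks. At full depth 1500 ± 53.5 circles (SD, n = 4) had a read at 4 weeks and 1363 ± 86.4 (SD, n = 3) at 8 weeks. When every library was thinned at random to 3595 junction reads, the smallest total in the series, the numbers were 1185 ± 16.1 and 1168 ± 11.9, and the groups overlapped (two-sided exact permutation p = 0.171). With at least 2 reads asked of a circle at that depth, 716 ± 12.1 circles were detected at 4 weeks and 713 ± 4.39 at 8 weeks (two-sided exact permutation p = 0.714).

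**Figure D1:**
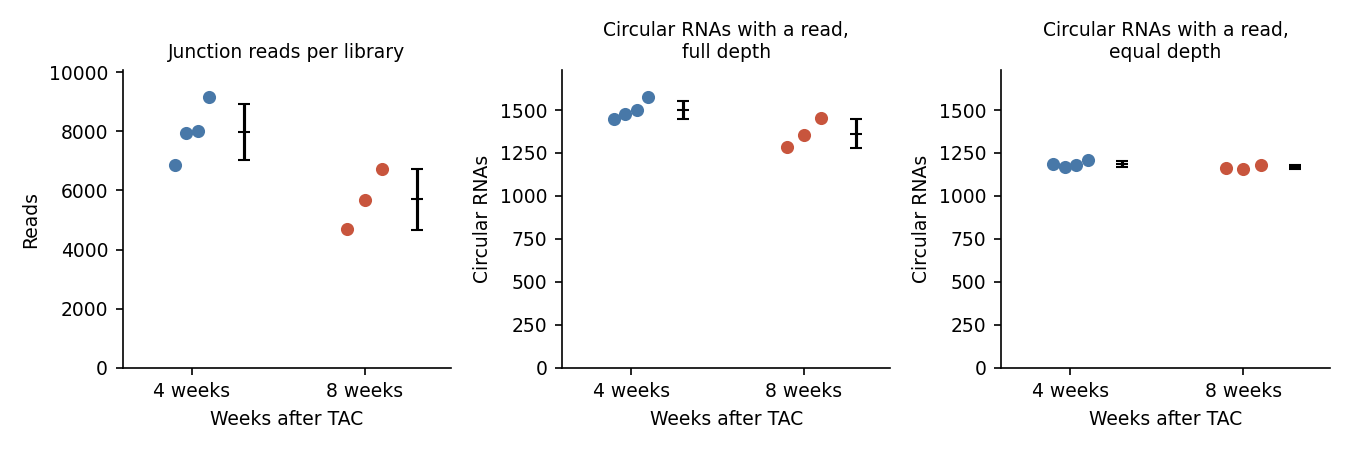
Junction reads per library (left), circular RNAs with at least 1 read at full depth (middle) and at 3595 reads per library (right), for 4 libraries at 4 weeks and 3 at 8 weeks after TAC. Points are libraries and bars the mean ± SD. The groups are apart in depth (7980 against 5698 reads) and overlap in the number of circles once depth is equal (1185 against 1168).

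Between 4 and 8 weeks of TAC no circular RNA changed past the threshold: limma called 0 of 1717 at an adjusted p of 0.05 (0% of those tested), and the smallest adjusted p was 0.851. An unadjusted p under 0.05 was reached by 71 circles, 4.14% of those tested, where 85.85 would be the number if p-values were uniform. Of these, 22 were higher at 8 weeks (1.28%) and 49 lower (2.85%). A precision-weighted fit of the recovered whole reads (limma-voom) also called 0, with 113 under an unadjusted p of 0.05. All libraries at 8 weeks lay above all at 4 weeks for 52 circles (3.03%) and below them for 62 (3.61%), together 114 (6.64%). The median log2 fold change over all circles was -0.09, with 768 positive and 949 negative values. That median was sensitive to scaling: it was -0.19 with TMM factors, a shift of about 0.1, and -0.00284 with all libraries thinned to one depth. Fold changes below are on the scale of log2(normalized reads + 0.5), which understates changes of low circles.

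Precision was low for most circles. The median standard error of a log2 fold change was 0.86 over all circles and 0.39 among the 39 circles with a mean of 20 or more reads. The 95% interval lay within 2-fold in either direction for 26 circles of 1717 and within 4-fold for 772. For the other circles a change of 4-fold was not excluded by these libraries.

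**Figure D2:**
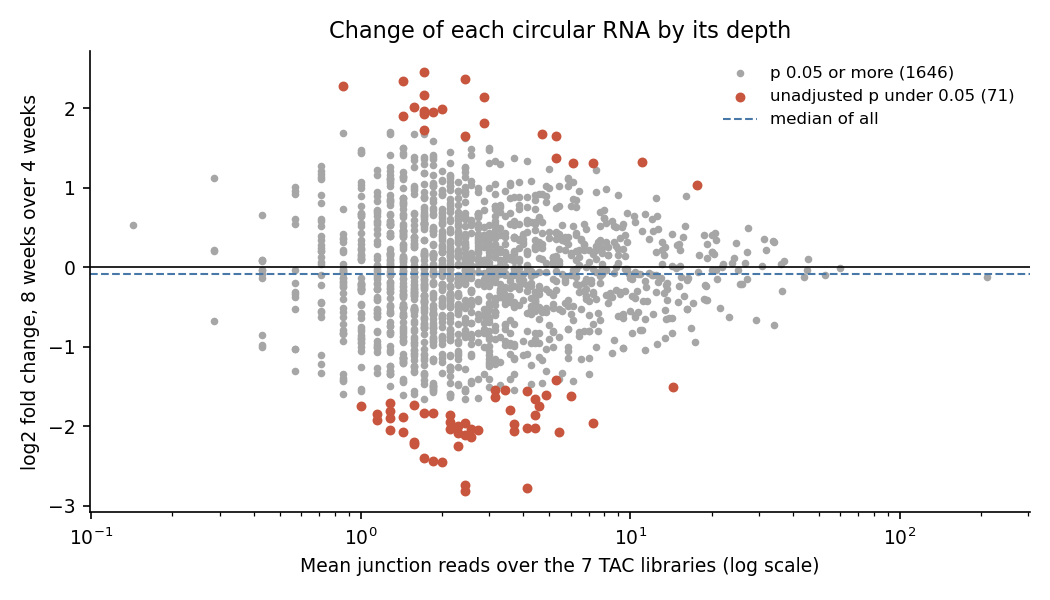
Log2 fold change (8 weeks over 4 weeks) of each of the 1717 circular RNAs against its mean junction reads over the 7 TAC libraries, on a log axis. Red points are the 71 circles with an unadjusted p under 0.05, and the dashed line is the median of -0.09. The spread narrows with depth, and none of the 39 circles with 20 or more reads is red.

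No difference beyond the spread between libraries was seen for the most abundant circles. Nfix encodes a nuclear factor I transcription factor, and its exon 2 formed the circle with the most reads, at 183, 220, 147 and 166 normalized reads at 4 weeks and 129, 192 and 171 at 8 weeks. The groups overlapped, and the log2 fold change was -0.13 ± 0.17 (SE), with a 95% interval from -0.45 to 0.20. Med13l belongs to the kinase part of Mediator, which links transcription factors to RNA polymerase II. From its exon 2 came values of 59.2, 40.3, 40.7 and 56.5 at 4 weeks and 39.5, 43.9 and 64.3 at 8 weeks. Its log2 fold change was -0.01 ± 0.25 (95% interval -0.51 to 0.49). The next 8 were circles of Mmp15, a membrane-anchored matrix metalloproteinase, Nfkb1, the precursor of an NF-kappaB subunit, Rnf169, Lrch3, Amotl1, Fbxw4, Rad52 and Elf2. Their log2 fold changes ran from -0.30 ± 0.34 for Rad52 exons 10 to 11, a gene of homologous recombination, to 0.33 ± 0.34 for Elf2 exons 2 to 4, an ETS transcription factor. All 10 overlapped between the groups.

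Membership at the top was also largely shared. Of the 10 circles with the highest mean, 8 were the same at 4 and 8 weeks, and of the 100 highest, 79. A read in all 7 libraries was found for 704 circles. Pairs of libraries correlated with a median Pearson r of 0.618 within 4 weeks (6 pairs), 0.519 within 8 weeks (3 pairs) and 0.548 between the stages (12 pairs), over 340 circles with a mean of at least 5 reads. These correlations are across circles, share each library's depth and are given as a description. The 10 most abundant circles took 8.64% ± 0.39 of reads at 4 weeks and 8.53% ± 0.32 at 8 weeks. Circles that begin at exon 2 of the transcript took 43.7% ± 1.57 and 43.4% ± 1.77, single-exon circles 10.0% ± 0.23 and 9.67% ± 0.29, and circles with untranslated sequence 19.0% ± 1.28 and 18.8% ± 0.97 (SD, n = 4 and 3 throughout). Each of these shares overlapped between the groups.

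The 20 circles with the smallest p are described next as those that did not pass the test, with adjusted p by limma between 0.851 and 0.858. Lower at 8 weeks were 14 of them and higher 6. The groups did not overlap in 16, beside 6.64% of all circles, a contrast that picking circles by p from the same values brings about.

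Among the 14 lower circles, Eprs exons 11 to 15 had the smallest p. Eprs encodes the glutamyl-prolyl-tRNA synthetase, which charges tRNA with the proline that collagen is rich in. Its circle of 601 bases, whose junction is printed above, had 2.54, 2.93, 10.9 and 3.85 normalized reads at 4 weeks and 0, 0 and 0.857 at 8 weeks. The highest value came from the third library at 4 weeks, and the other libraries at 4 weeks were still above all at 8 weeks. The log2 fold change was -2.77 ± 0.79 (SE; adjusted p = 0.851, limma). In sham fibroblasts the same circle had 2.36 ± 0.54 (SD, n = 5) at 4 weeks and 3.16 ± 3.38 (SD, n = 4) at 8 weeks. The sham log2 fold change was -0.30 ± 0.70 (SE).

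Phf21a, a subunit of a histone demethylase complex that binds unmethylated histone H3, gave from exons 15 to 17 values of 2.54, 2.93, 4.36 and 2.57 at 4 weeks and no read at 8 weeks. Its 4-week mean was 3.08 times a floor of 3 reads over the 8-week group. The log2 fold change of this circle was -2.82, with a 95% interval from -4.53 to -1.11. Rnf2, the catalytic ubiquitin ligase of Polycomb repressive complex 1, showed the same pattern at exons 3 to 5. It had 2.54, 1.47, 5.08 and 3.21 at 4 weeks, with a mean 3.05 times the floor, and none at 8 weeks. Both rested on 17 reads at 4 weeks. A further 4 circles had no read at 8 weeks and reads in every 4-week library. The 4-week mean was 2.50 times the floor for Herc2 exons 3 to 4 and 2.31 times for Cd164 exons 2 to 4. For Slc22a15 exons 3 to 4 it was 2.18 times the floor, and for Klc1 exons 5 to 7 it was 2.09 times. Herc2 is a giant ubiquitin ligase, Cd164 a sialomucin, Slc22a15 a solute carrier and Klc1 a kinesin light chain.

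Better covered was Cnot4 exons 2 to 3, from the gene of a ubiquitin ligase of the CCR4-NOT deadenylase complex. It had 6.76, 5.87, 10.2 and 9.64 normalized reads at 4 weeks and 1.20, 1.02 and 3.43 at 8 weeks, from 45 and 6 reads. The groups were apart, and the log2 fold change was -1.96 ± 0.71 (adjusted p = 0.858, limma). Psd3 exons 2 to 5, from an exchange factor for the small GTPase Arf6, had the most reads of the lower circles, with 7.61, 8.80, 20.3 and 22.5 at 4 weeks and 9.58, 1.02 and 6.86 at 8 weeks. These groups overlapped, and the log2 fold change was -1.51 ± 0.53. Fgfr1 exon 3, of a fibroblast growth factor receptor, had 9.30, 3.67, 5.08 and 2.57 against 0, 2.04 and 1.71. The other lower circles, of Zfpm1, Ccar1, Plce1 and Arhgap12, had log2 fold changes of -2.02, -2.07, -2.09 and -2.25.

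Among the 6 higher circles, Uhrf2 exon 2 had the smallest p. Uhrf2 encodes a ubiquitin ligase that reads modified DNA and histones. Its circle of 234 bases had 0, 1.47, 0 and 0 normalized reads at 4 weeks and 4.79, 3.06 and 2.57 at 8 weeks, from 2 and 10 reads, with a log2 fold change of 2.46 ± 0.87. Slc25a30, a mitochondrial carrier, had from exons 4 to 5 values of 0, 1.47, 0.726 and 1.28 against 3.59, 6.13 and 5.14 (log2 fold change 2.14 ± 0.79). Disc1, a scaffold protein of the centrosome, had from exons 4 to 9 values of 0, 0, 0.726 and 0 against 4.79, 1.02 and 3.43 (2.34 ± 0.88). In all 3 every library at 8 weeks was above every library at 4 weeks, as in 3.03% of all circles.

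Malat1, an abundant nuclear long noncoding RNA, gave the remaining higher circles apart from Ttn. Its 3 junctions had no end at an annotated exon boundary, and the 66-base and 45-base circles printed above abut each other on the genome. The circle of 66 bases had 0.845, 0, 0.726 and 0.642 normalized reads at 4 weeks and 3.59, 6.13 and 4.29 at 8 weeks (log2 fold change 2.36 ± 0.88). The circle of 45 bases had no read at 4 weeks and 3.59, 2.04 and 0.857 at 8 weeks. Its 8-week mean was 3.95 times a floor of 3 reads over the 4-week group. The log2 fold change of this circle was 2.27, with a 95% interval from 0.57 to 3.98. Its sham levels ran the other way, from 3.90 ± 2.04 (SD, n = 5) at 4 weeks to 0.506 ± 0.585 (SD, n = 4) at 8 weeks. Summed over its 3 circles, Malat1 had 0.845, 0.734, 0.726 and 2.57 at 4 weeks and 9.58, 8.17 and 7.71 at 8 weeks, a log2 fold change of 2.50 ± 0.74 (adjusted p = 0.504 over 1187 host genes, limma). The 2 ends of these circles repeat 8, 5 and 3 bases of the transcript (57, 66 and 45 bases long), so that a junction cannot be placed to the base within the repeat.

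Malat1 was not alone among junctions without an exon boundary. Of the 15 junctions with no end at a boundary, 4 had an unadjusted p under 0.05, all higher at 8 weeks, against 71 of all 1717 (4.14%). The class was singled out after its values were seen, so no test is given. Beside both Malat1 circles these were a 41-base junction inside Sparc, which encodes a collagen-binding matricellular protein, and a 59-base junction inside Rn7sk, the small nuclear RNA that holds the transcription elongation factor P-TEFb inactive. Sparc had 0, 0.734, 0 and 1.93 normalized reads at 4 weeks and 3.59, 2.04 and 4.29 at 8 weeks. Rn7sk had 1.69, 2.93, 2.18 and 3.85 against 8.38, 8.17 and 6.00, with no overlap in either. Their adjusted p was 0.946 each (limma).

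**Figure D3:**
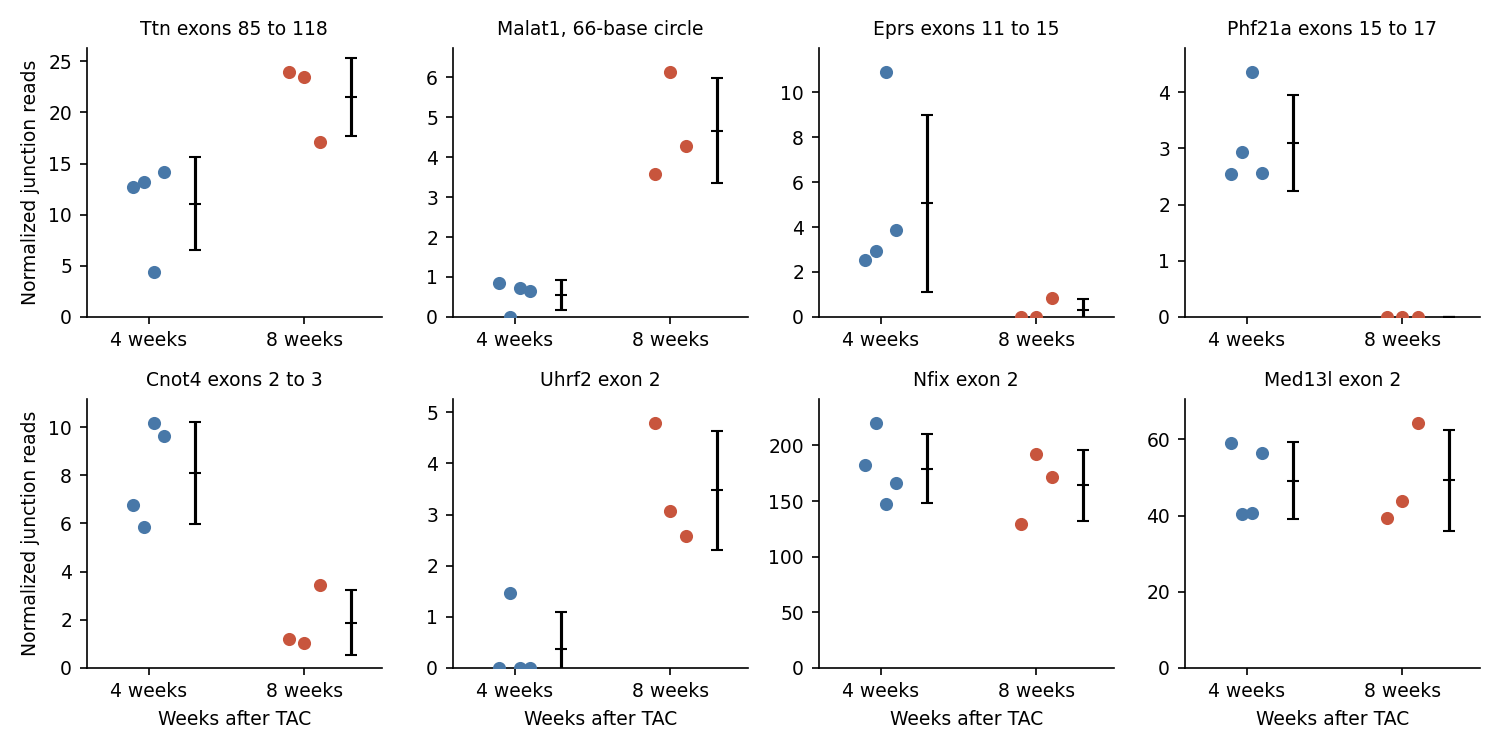
Normalized junction reads of 8 circular RNAs in each of 4 libraries at 4 weeks (blue) and 3 at 8 weeks (red) after TAC, with the mean ± SD in black, lower bars cut at 0. The 6 circles chosen among the smallest p do not overlap between the groups, a trait of 6.64% of all circles. Nfix and Med13l overlap between the groups. No circle passed the adjusted threshold.

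Ttn encodes titin, the giant spring protein of the sarcomere, and is a marker gene of cardiomyocytes. Its circle of exons 85 to 118, with a spliced length of 6213 bases, had 12.7, 13.2, 4.36 and 14.1 normalized reads at 4 weeks and 23.9, 23.5 and 17.1 at 8 weeks. The third library at 4 weeks was lowest, and the groups did not overlap. The log2 fold change was 1.03 ± 0.39 (95% interval 0.27 to 1.80; adjusted p = 0.858, limma), from 61 and 63 reads. Sham fibroblasts held more of it at both times, 31.3 ± 12.0 (SD, n = 5) at 4 weeks and 45.0 ± 17.8 (SD, n = 4) at 8 weeks. The difference between the TAC change and the sham change was 0.53 ± 0.52 (SE). The circle was called in 2 of 20 thinnings of all libraries to 3595 reads. No thinning of the 7 TAC libraries alone, to 4685 reads, called it. Thinnings redraw the same reads and add no support.

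The wider list of cardiomyocyte markers includes the Ttn circles. Of its 63 genes, 14 hosted 23 circles, 15 with positive and 8 with negative fold changes and a median of 0.55, beside -0.09 over all circles; none was called. Myh6, Tnnt2, Actc1 and Myl2, which define cardiomyocytes, hosted none of the 1717 circles. The summed level was 43.1, 55.0, 34.9 and 64.9 at 4 weeks and 74.2, 88.9 and 65.1 at 8 weeks. The groups did not overlap, but the highest sum at 4 weeks and the lowest at 8 weeks nearly touched. Without Ttn the sums were 34.0 ± 10.1 (SD, n = 4) and 47.8 ± 8.94 (SD, n = 3) and overlapped. In sham hearts the list had sums of 90.3 ± 33.7 (SD, n = 5) and 116 ± 30.5 (SD, n = 4), and its median over the same interval was 0.43. Examples were Ryr2, the calcium release channel of the sarcoplasmic reticulum, with a log2 fold change of 0.89 for exons 59 to 62, Mlip exons 6 to 11 (1.30), Kcnq1, a potassium channel subunit, at exons 12 to 15 (1.04) and Dmd, dystrophin, at exons 72 to 77 (-1.56). In these bulk preparations more cells of a type and more RNA per cell cannot be told apart. The part of these markers in the other differences was not tested.

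Fibroblast markers were checked against the label. Of 44 listed genes 10 hosted 17 circles, led by Nfix exon 2, while Pdgfra, Tcf21, Col1a1 and Postn hosted none, so the label rests here on few markers. Their summed level was 206 ± 31.4 (SD, n = 4) at 4 weeks and 198 ± 32.4 (SD, n = 3) at 8 weeks. Nfix exon 2 alone gave 179 ± 30.9 and 164 ± 32.0 of these, so the sum mostly follows that circle. Positive fold changes numbered 9 and negative 8, with a median of 0.36, and 0 were called. That median was 0.02 to 0.41 when a library was left out, and with a mean of at least 5 reads only Nfix exon 2 was left, at -0.13. The highest was Fbn1 exons 2 to 5, of the microfibril protein fibrillin-1, at 0.845, 0, 0.726 and 0.642 against 2.39, 4.09 and 0.857. Dcn exons 5 to 7, of the collagen-binding proteoglycan decorin, had 0, 2.93, 0 and 0.642 against 1.20, 1.02 and 1.71.

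Markers of the remaining cell types of the heart showed no call. Macrophage and other leukocyte markers had 31 circles, 19 positive and 12 negative, with a median of 0.10. Groups did not overlap for 1 higher and 3 lower of these, beside 3.03% and 3.61% of all circles. Endothelial markers had 18 circles, 6 positive and 12 negative, with a median of -0.25, which shrank to -0.07 when thinned and to -0.09 by limma-voom. Here Ets1 exons 2 to 5, of an endothelial and lymphoid ETS factor, had 1.69, 6.60, 2.18 and 1.93 at 4 weeks and 0, 1.02 and 0 at 8 weeks. Pecam1 exons 8 to 14, of an endothelial adhesion molecule, ran the other way, with 0, 0.734, 1.45 and 3.21 against 4.79, 3.07 and 1.71, and overlapped. The leukocyte circle with the smallest p was one assigned to F13a1 from 2 candidate hosts. It had no read at 8 weeks and a log2 fold change of -1.90, and is described below. Mrc1 exons 8 to 9, of the macrophage mannose receptor, had 0, 2.20, 0 and 0.642 against 4.79, 2.04 and 1.71 and overlapped. The only mural cell circle, Abcc9 exons 12 to 15, had 6.76, 4.40, 4.36 and 4.50 against 1.20, 3.07 and 2.57.

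Lists of fibrosis pathways had no call, and several of their medians changed sign with the processing. Extracellular matrix genes had 15 circles, 6 positive and 9 negative, with a median of -0.14, and summed to 83.0 ± 13.6 (SD, n = 4) and 79.3 ± 1.91 (SD, n = 3). Myofibroblast, actin and adhesion genes had 28 circles with a median of 0.03. The list of TGF-beta, BMP and SMAD signalling joins the profibrotic TGF-beta route with BMP genes. It had 12 circles, 5 positive and 7 negative, with a median of -0.07. Over the alternative settings that median ran from -0.17 to 0.63, the latter for the 4 circles with a mean of at least 5 reads, and it was positive in 8 of 15. The summed level of the list was 36.8 ± 6.42 (SD, n = 4) at 4 weeks and 48.1 ± 4.77 (SD, n = 3) at 8 weeks, a ratio of 1.31, and the groups overlapped. Its 2 circles with the smallest p were higher at 8 weeks in every library, though not past the test, as were 3.03% of all circles. They were picked by p from these values, and their adjusted p was 0.997 each (limma). Acvr2a exons 2 to 4, of a type II activin receptor, had 0.845, 5.13, 4.36 and 7.07 against 10.8, 7.15 and 9.43. Smad1 exon 2, of a BMP-activated SMAD, had 8.45, 5.13, 2.90 and 6.42 against 9.58, 10.2 and 12.0. Wnt and Hippo genes had 18 circles with a median of -0.07, where Lrp6 exon 2, of a Wnt co-receptor, had 2.54, 1.47, 2.18 and 1.93 against 0, 0 and 0.857. Receptor tyrosine kinase and MAPK genes had 33 circles with a median of -0.02, among them Pik3c2a exons 5 to 8, of a lipid kinase, at 2.54, 3.67, 6.54 and 7.07 against 2.39, 0 and 0.857.

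Chromatin and transcription regulators had more negative than positive fold changes. Of 85 circles 26 had positive and 59 negative fold changes, with a median of -0.19 beside -0.09 for all circles, and 0 were called. With each circle's fold change taken as its median over 20 thinnings to equal depth, these medians were -0.11 and 0.02. An unadjusted p under 0.05 was reached by 4 (4.71%), near the 4.14% of all circles, and these were lower at 8 weeks: with Phf21a these included Ash1l exons 8 to 10, of a histone H3 methyltransferase, at 1.69, 3.67, 1.45 and 3.21 against 0, 0 and 0.857. The summed level was 386 ± 29.6 (SD, n = 4) and 348 ± 20.1 (SD, n = 3) and overlapped. RNA-binding and splicing factors had 39 circles, 18 positive and 21 negative, with 1 higher and 5 lower at an unadjusted p under 0.05 (15.4% together, beside 4.14% of all circles, 1.28% higher and 2.85% lower), such as Sf3b3 exons 16 to 17, of the U2 snRNP, at 5.92, 3.67, 4.36 and 3.21 against 0, 1.02 and 1.71. Ubiquitin ligases and deubiquitinases had 45 circles with a median of -0.04, endocytosis and membrane traffic 71 with a median of -0.09, and hosts of widely reported circular RNAs 126 with a median of -0.04. Cell cycle genes had 10 circles with a median of 0.13, where Bub1b exons 17 to 19, of a spindle checkpoint kinase, had 7.61, 5.87, 3.63 and 0.642 against 9.58, 8.17 and 10.3.

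**Figure D4:**
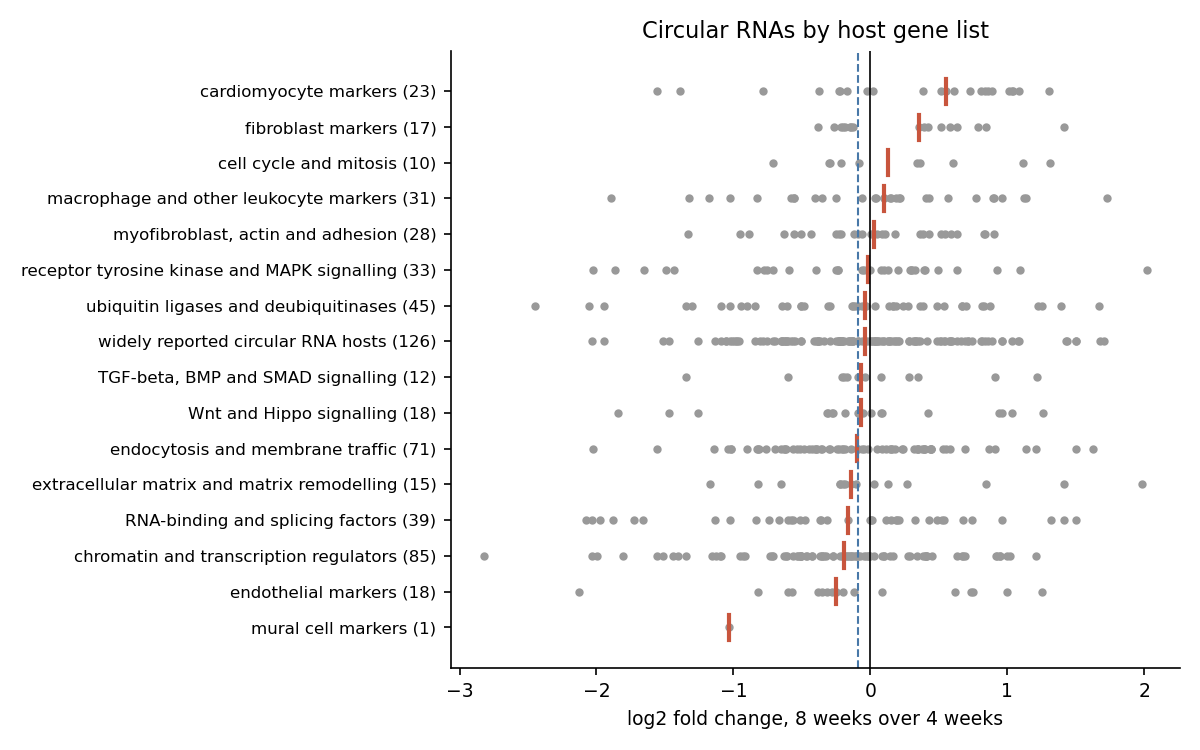
Log2 fold change (8 weeks over 4 weeks after TAC) of each circular RNA in 16 host gene lists, with the number of circles in brackets. Grey points are circles, red bars the medians, and the dashed line the median of all circles (-0.09). Cardiomyocyte markers have the highest median (0.55), and the lowest is that of the 1 mural cell circle.

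Circle structure was described by class. The 1363 circles of coding exons had a median log2 fold change of -0.08, the 269 with coding and untranslated sequence -0.13, the 105 single-exon circles -0.13 and the 208 circles of more than 5 exons -0.13, beside -0.09 for all. The 60 circles without both ends in 1 transcript had a median of -0.18, with 10.0% at an unadjusted p under 0.05, and the 15 among them with no end at a boundary had a median of 0.55, with 26.7%. The share of circles with an unadjusted p under 0.05 was 5.58% among the 430 circles with the shortest genomic span and 3.50% among the 429 with the longest, beside 4.14% in all.

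Circles read at only one stage were mostly those of the deeper group. Reads at 4 weeks only were found for 35 circles, of which 31 had more than 3 reads and the highest had 17. Reads at 8 weeks only were found for 3 circles, those of 45-base Malat1 (6 reads), Zbtb16 exons 3 to 4 (2 reads) and a 62-base junction in Gm28437 (1 read). The other 1679 circles were read at both stages. Since 4 libraries of greater depth stood against 3 shallower ones, these numbers are not a measure of loss.

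Summed by host gene, the comparison called 0 of 1187 hosts, with 47 at an unadjusted p under 0.05 (3.96%) and a smallest adjusted p of 0.504 for Eprs and Malat1 (limma). The limma-voom fit of host sums also called 0. The 2 hosts whose circles had the widest range of fold changes are described next. Opposite signs within them follow from that choice. F13a1 encodes a subunit of coagulation factor XIII and is expressed by resident macrophages. It had 8 circles with log2 fold changes from -1.90 ± 0.87 to 1.12 ± 0.63 (SE). The lowest was the circle with 1 end at an exon boundary, at 0.845, 0.734, 1.45 and 3.21 against no read. It had 2 candidate host genes, so its assignment to F13a1 is uncertain. The highest was exons 9 to 13, at 2.54, 4.40, 0.726 and 6.42 against 5.99, 6.13 and 8.57. Crim1, a transmembrane protein that binds BMPs, had 5 circles from -1.05 ± 0.73 to 1.68 ± 0.87 (SE). Exons 3 to 4 had 2.54, 7.34, 7.26 and 6.42 against 1.20, 4.09 and 2.57, and exons 3 to 5 had 1.69, 0, 0 and 0 against 1.20, 1.02 and 4.29.

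**Figure D5:**
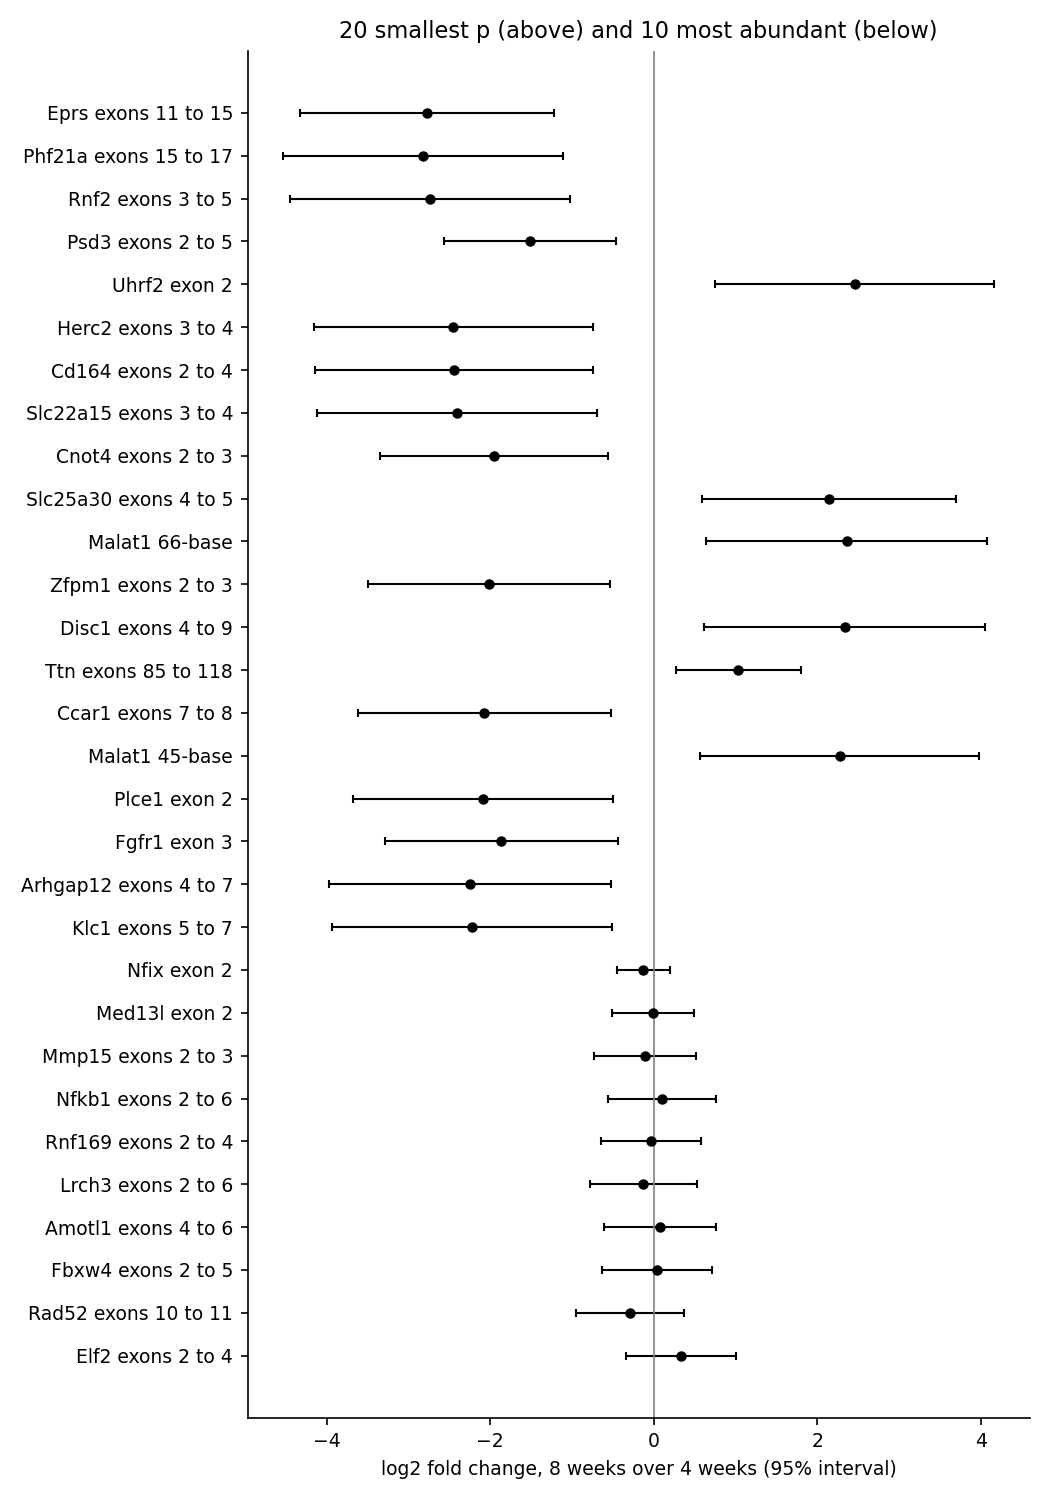
Log2 fold change (8 weeks over 4 weeks after TAC) with its 95% interval for the 20 circular RNAs with the smallest p (upper rows, in order of p) and the 10 most abundant (lower rows). Intervals of the upper rows exclude 0 before adjustment, and none passed after it; those of the lower rows all include 0.

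The same interval in sham fibroblasts gave 0 calls by limma as well, with 119 circles at an unadjusted p under 0.05 (6.93%), 71 higher (4.14%) and 48 lower (2.8%). The sham libraries are not shared with the TAC comparison. A test of the difference between the TAC change and the sham change called 0 of 1717 (109 at an unadjusted p under 0.05, 6.35%, with 1.86% positive and 4.48% negative), and 4 circles shared the smallest adjusted p of 0.193 (limma). These were the 45-base Malat1 circle, whose difference was 4.43 ± 1.16 (SE), Parvb exons 2 to 4, of the integrin-linked adaptor beta-parvin (4.23 ± 1.15), Pik3c2a exons 5 to 8 (-3.82 ± 1.07) and Rabep1 exons 2 to 3, of an effector of the endosomal GTPase Rab5 (-2.88 ± 0.82). The fifth was Cnot4 exons 2 to 3 (-3.20 ± 0.95). In the limma-voom fit 2 circles passed, those of Malat1 and Parvb, both with a rise under TAC and a fall in sham. In the main fit the log2 fold changes were 2.27 (TAC) and -2.16 (sham) for Malat1. Those of Parvb were 2.17 and -2.06. Parvb had 1.69, 0, 0 and 0 at 4 weeks and 1.20, 3.07 and 5.14 at 8 weeks of TAC, while sham levels were 3.31 ± 2.83 (SD, n = 5) and 0.241 ± 0.481 (SD, n = 4). Rabep1 had 8.45, 10.3, 13.8 and 10.3 against 12.0, 1.02 and 7.71 under TAC, and 3.01 ± 2.52 (SD, n = 5) and 10.4 ± 4.01 (SD, n = 4) in sham hearts.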

How the data were processed

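Back-splice junctions were counted in total RNA libraries of mouse cardiac fibroblasts. Per the submitters' processing notes, FastQC, Trimmomatic and STAR were used with mm10; no versions and no normalization are stated there. The authors deposited a signal per circle: junction reads multiplied by a factor of the library, with 0.01 added. Subtracting 0.01 and dividing by that factor, estimated from the values, left whole reads for 100% of values. The tolerance was 0.001 of a read plus an allowance for the rounding of the deposited values. The greater depth of the 4-week TAC libraries was handled by these deposited factors, with TMM and median-of-ratios factors, total scaling and thinning as alternatives. Values were tested as log2(normalized reads + 0.5) with limma 3.58.1 (trend, empirical Bayes, R 4.3.3), in a fit of all 24 libraries and 6 groups that share one spread, with Benjamini-Hochberg adjustment over all 1717 circles or 1187 hosts. Empirical Bayes drew the spread of each circle towards a trend shared by all circles, with 625.7 total degrees of freedom. Each SE and p therefore rests largely on that trend, not on the circle's own libraries. No filter was applied. Other tests were two-sided exact permutation tests over libraries. The test code was checked on simulated data. Hosts and exon numbers come from GENCODE M21 on GRCm38; both ends matched exon boundaries of one transcript for 1657 circles. Named circles are the 20 with the smallest p, the 10 most abundant, the 2 with the smallest p per list, the 5 with the smallest p for the difference from sham, the 5 first hosts, up to 3 read in one group only in each direction, and the circles of the 2 hosts with the widest range. Members and lists were chosen with earlier results of these data known.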

Additional observations from a re-analysis of the deposited data

Results flagged for a closer look

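In groups of 4 or 5 libraries, 16 of 96 value sets (16.7%) had a highest or lowest library whose gap to the next was large for the whole range; chance flags about 1 in 20 groups, and sets in which only 1 library had reads are flagged by construction. All values are normalized junction reads, in the 4-week TAC group unless stated. The third library was high for Eprs exons 11 to 15 (10.9, others 2.54 to 3.85), Crim1 exons 3 to 7 (2.18, others 0.642 to 0.845) and Disc1 exons 4 to 9 (0.726, others 0). It was low for Ttn exons 85 to 118 (4.36, others 12.7 to 14.1) and Amotl1 exons 4 to 6 (18.2, others 33.0 to 34.5). The second library was high for Ets1 exons 2 to 5 (6.60, others 1.69 to 2.18), Uhrf2 exon 2 (1.47, others 0) and F13a1 exons 6 to 8 (0.734, others 0). The first was high for Abcc9 exons 12 to 15, which is also the whole mural cell sum (6.76, others 4.36 to 4.50), and for Parvb exons 2 to 4 and Crim1 exons 3 to 5 (1.69 each, others 0). The fourth was high for Crim1 exons 6 to 7 (3.21, others 1.45 to 1.69) and low for Cul4a exons 15 to 17 (1.93, others 3.38 to 3.67). In the 8-week sham group, 1 library was high for Parvb (0.962, others 0) and 1 low for Rabep1 exons 2 to 3 (4.40, others 11.5 to 12.8).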

How the results depend on the processing

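No circle and no host was called for TAC at 8 against 4 weeks under any of these settings: pseudocounts of 0.1 and 1, TMM, median-of-ratios and total scaling, a mean of at least 5 reads, limma-voom, only the 7 libraries in the fit, thinning (median of 20) and each library left out (0 to 0 calls). Single thinnings to 3595 reads called Ttn exons 85 to 118 in 2 of 20 and Lmbr1 exons 4 to 5, named after its values were seen, in 1 of 20, and the hosts Ttn, Malat1 and Rn7sk in 1 of 20 each; no circle was called in any of 20 when only the 7 libraries were thinned, to 4685 reads, an alternative chosen after seeing the data. The smallest adjusted p of the limma fits ranged from 0.254 (without the third library at 8 weeks) to 1.00 when a library was left out. Circles at an unadjusted p under 0.05 numbered 113 by limma-voom and 122 with only the 7 libraries, against 71. With only the 7 libraries the smallest adjusted p was 0.197 (limma), against 0.851 in the main fit. Same-numbered TAC libraries did not deviate together (correlations of -0.035, 0.066 and 0.046). No pairing by number was seen, though with few reads per circle these values cannot exclude it. With a replicate block 0 were called, with 94 at an unadjusted p under 0.05 (limma). The difference from the sham change had 0 calls, but 2 by limma-voom. edgeR and DESeq2 were planned and not run; limma-voom on the recovered reads was run in their place.

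Over all circles the median change on the log2 scale (-0.09) was -0.19 with TMM factors, -0.00284 and -0.00686 when all or only the 7 libraries were thinned, 0.0654 by limma-voom, and -0.111 to -0.0233 with a library left out. The median of 9 of the 16 gene lists had the other sign in at least 1 alternative. The 20 circles with the smallest p were chosen from these same values, so a kept sign adds no support for a change. None of them changed sign in 324 alternative values. Another 15 named circles did in 47 values, all with small or poorly measured changes, for which a direction should not be read; the cause was not tested. With TMM factors the log2 fold change became -0.0389 for Nfkb1, -0.0668 for Amotl1 exons 4 to 6, -0.11 for Fbxw4, -0.0910 for F13a1 exons 9 to 14 and -0.0328 for F13a1 exons 5 to 6 (also -0.0384 with a pseudocount of 0.1). With median-of-ratios factors it was -0.0266 for Fbxw4 and -0.0146 for F13a1 exons 9 to 14. Med13l turned to 0.0161 with total scaling, 0.0606 by limma-voom and 0.0664 with the block, and Crim1 exons 2 to 4 to 0.0626 by limma-voom and 0.000354 with the block. Thinned, Rnf169 was at 0.0454 and F13a1 exons 9 to 11 at -0.17 (-0.0268 with the block).

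With each library left out in turn, the ranges that crossed 0 were -0.25 to 0.0344 for Nfix exon 2, -0.21 to 0.13 for Med13l exon 2, -0.20 to 0.0540 for Mmp15 exons 2 to 3, -0.0382 to 0.24 for Nfkb1 exons 2 to 6, -0.15 to 0.10 for Rnf169 exons 2 to 4, -0.59 to 0.20 for Lrch3 exons 2 to 6, -0.18 to 0.32 for Amotl1 exons 4 to 6, -0.0763 to 0.16 for Fbxw4 exons 2 to 5, -1.45 to 0.0345 for Ablim1 exons 5 to 6, -0.30 to 0.46 for F13a1 exons 9 to 14, -1.19 to 0.0529 for F13a1 exons 9 to 12, -0.21 to 0.64 for F13a1 exons 9 to 11, -0.33 to 0.54 for F13a1 exons 6 to 8, -0.39 to 0.68 for F13a1 exons 5 to 6 and -0.89 to 0.86 for Crim1 exons 2 to 4.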
